A study of Mus musculus with 2 samples.

Results

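The 44 protein-coding collagen genes of the mouse were examined for accessible chromatin in Stag3 KO GSCs. Members were taken by name, as every protein-coding symbol of the RefSeq gene table on GRCm38 made of Col, a number, the letter a and a number, and they are 44 of 21887 protein-coding genes on chromosomes 1 to 19, X and Y. Accessibility was measured by ATAC-seq, an assay that marks open chromatin by where the Tn5 enzyme can cut and tag DNA. The series held 1 group of 2 samples, replicates 1 and 2, both of the AAG line, which carries the reporters Acrosin-EGFP and beta-Actin-EGFP, with the genotype Stag3 KO and sorted for viable AAG-positive cells. GSCs are germline stem cells, and STAG3 is a subunit of the cohesin complex, which shapes chromosomes. Wild-type cells, which the study's design names for comparison, were not analysed here, so no value below is an effect of the knockout. The labels do not say whether the samples came from separate cultures, and their spread may be technical.

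Collagens are secreted or membrane-bound proteins in which 3 chains wind into a triple helix built on a repeated glycine. Fibrillar collagens assemble into the banded fibres of bone, skin, tendon and cartilage. Type IV collagens form the sheet-like network of basement membranes, and in the testis spermatogonia rest on such a membrane, which Sertoli and peritubular cells lay down. The type IV genes are known for lying in head-to-head pairs, in which both genes are transcribed away from a common start region.

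Replicate 1 held 107331 peaks and replicate 2 held 98986 peaks. A site was called shared when a replicate 1 peak overlapped a replicate 2 peak by at least 1 bp, which gave 83732 shared sites. The strength of a site is given as tags, the whole-number pileup at its summit recovered from the deposited values, and as fold enrichment over local background, which is the authors' own value. A fold percentile is the rank of a peak's fold within its library, averaged over both libraries. The median peak held 40 tags in replicate 1 and 41 tags in replicate 2, and the lowest held 9 in either, so weaker openings were not detectable. A shared site in the gene or within 1000 bp of it was found at 12 of 12 germ cell markers, 7 of 10 fibroblast and feeder markers, 5 of 6 Sertoli markers and 5 of 5 peritubular and endothelial markers, against 75.7% of all protein-coding genes. The markers with none were Dcn, Lum, Postn and Rhox5. Of those with a listed start, 9 of 9 germ cell, 3 of 5 fibroblast and feeder, 1 of 2 Sertoli and 2 of 2 peritubular and endothelial markers had a shared site there, against 65.9% of all protein-coding genes. Mean tags of the 2 libraries at these starts were 36.5 to 569 for germ cell, 30 to 59 for fibroblast and feeder, 50.5 for the Sertoli and 108 to 175 for peritubular and endothelial markers. The lists are small, and the share of somatic markers with a site was not far from that of all genes. The part of other cell types in the collagen sites was not tested, and a site open in few cells cannot be told apart from one weakly open in many. The targeted gene Stag3 had 2 shared sites, the stronger with a mean of 419.5 tags. With no statement of the deleted segment in the labels, these sites do not check the genotype.

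Nearly all collagen genes held accessible chromatin. A shared site lay in the gene or within 1000 bp of it at 42 of 44 members (95.5%), against 75.7% of all protein-coding genes. Collagen genes are long, with a median of 114 kb against 17.2 kb for all protein-coding genes, and longer genes held a site more often. Protein-coding genes were divided by length into 10 classes of equal number. Of the members, 33 fell in classes 8 to 10, the longest, where 95.8% of all genes had a site. All of these 33 members had a site, so long collagen genes were near the share of all long genes. The exceptions were shorter genes, in classes 7 and 3. They were Col7a1, the anchoring fibril collagen of the skin, and Col10a1, the collagen of hypertrophic cartilage, which had no peak in either library.

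Together the members held 243 shared sites, which met 239 different replicate 2 peaks, and 4 of the sites were counted at 2 head-to-head neighbours. Only 1 site lay at another protein-coding gene, the site past the end of Col23a1, which was within 1000 bp of the start of Phykpl. The median member had 5 sites, against 2 for all protein-coding genes. The density was 4.38 sites per 100 kb of gene and flanks in collagen genes and 5.44 in all protein-coding genes, of which most are shorter. In length class 10, the longest, the 23 members had a median of 7 sites, as had all 2189 genes of the class. The density was 4.27 per 100 kb in those members and 3.11 in all genes of the class. The members were the shorter ones, with a median of 142 kb against 185 kb, so these densities are not matched for length. By library, the members held 311 peaks in replicate 1 and 295 in replicate 2, counted per gene.

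**Figure D1:**
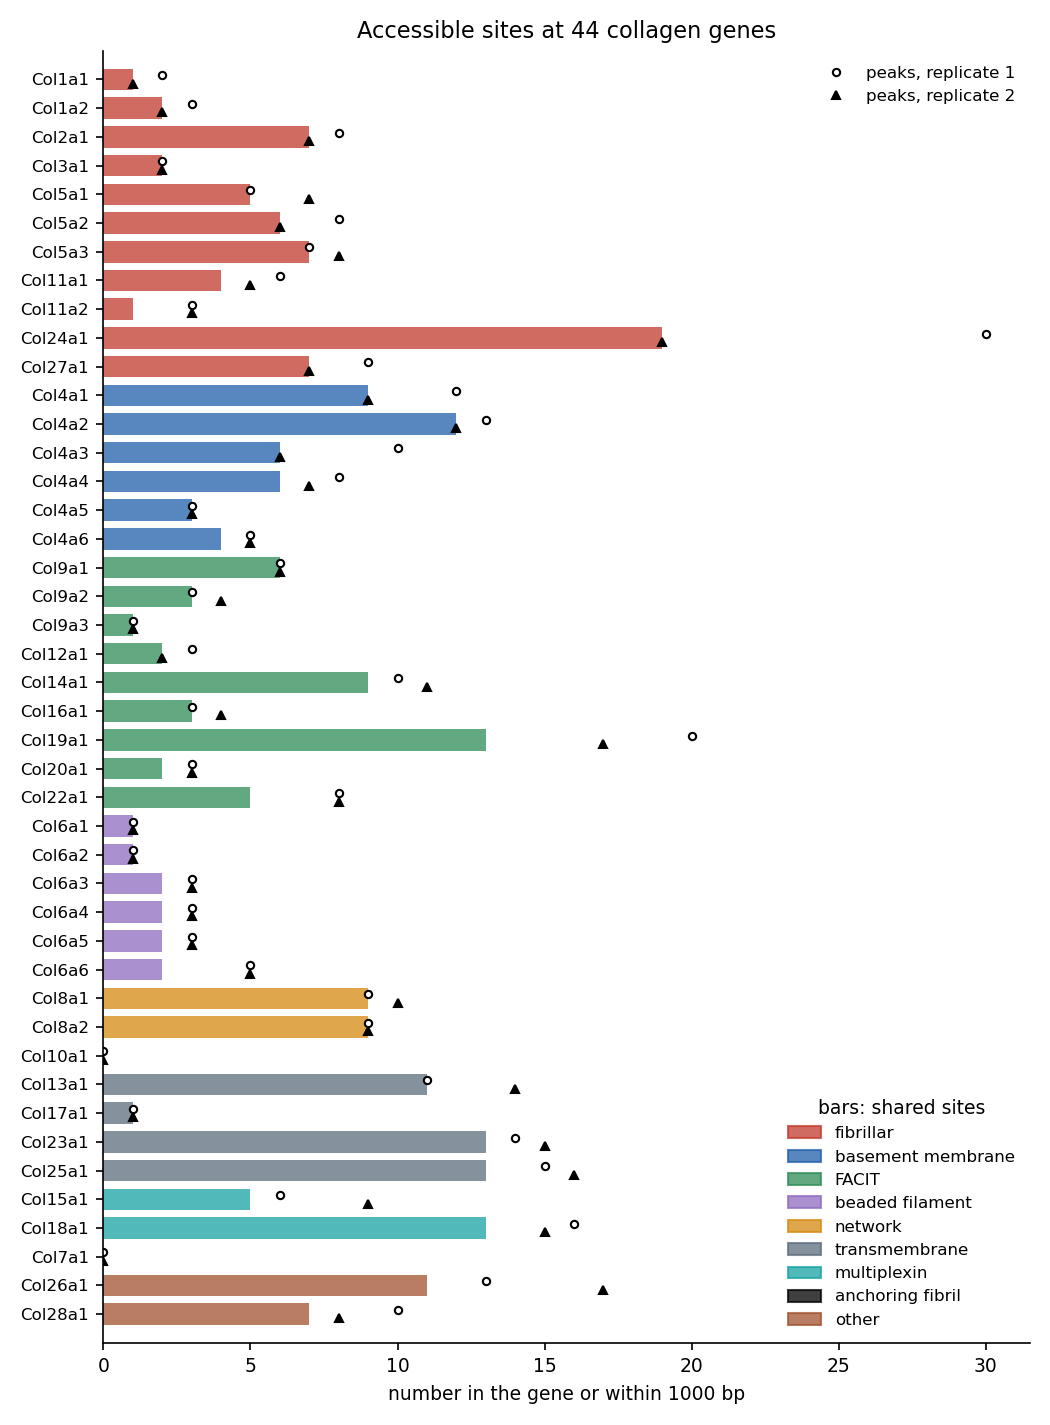
Number of shared sites (bars) and of peaks in each library (open circles for replicate 1, triangles for replicate 2) in each collagen gene or within 1000 bp of it, grouped by collagen class. Col24a1 stands at 19 shared sites, and Col10a1 and Col7a1 at 0.

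At the median, the collagen sites had somewhat fewer tags than all shared sites, with 43 in replicate 1 and 39 in replicate 2, against 52 and 51. The sets were not matched for start sites: 37 of the 243 collagen sites lay at a listed start. In genes with a listed start, the strongest site away from it had a median of 103 mean tags in collagen genes and 82.5 in all genes. In length class 10 these medians were 153 and 128. Of the 243 sites, 24 (9.88%) exceeded the 90th percentile of fold, averaged over the libraries, against 11.5% of all shared sites. They lay in 18 of 44 members, whereas 22.8% of all protein-coding genes, and 39.4% of those in length classes 8 to 10, had such a site. The libraries gave similar values: tags differed by more than 2-fold at 17 of 243 collagen sites (7.0%), against 8.07% of all shared sites. Another 64 peaks in replicate 1 and 47 in replicate 2 had no partner, with medians of 20.5 and 16 tags.

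The fibrillar genes were compared with the basement membrane genes as lists, by counts and medians, since genes of a list are not replicates. A shared site was present at all 11 fibrillar and all 6 basement membrane members. The median fibrillar gene had 5 sites, with a range of 1 to 19, and the median basement membrane gene had 6, with a range of 3 to 12. Relative to length the order was the other way round: 5.27 sites per 100 kb in fibrillar genes, whose median length was 45.1 kb, and 4.32 in basement membrane genes, whose median length was 138 kb (all protein-coding genes 5.44). The ranges, 2.08 to 22.5 and 1.29 to 8.67 sites per 100 kb, overlapped widely. The strongest site of a gene had a median fold percentile of 87.4 in fibrillar genes, 87.6 in basement membrane genes and 81.9 in all protein-coding genes with a site. In length class 10, which held all 6 basement membrane genes, this median was 91.4 over all genes. In mean tags the strongest site had a median of 112.5 in fibrillar and 110 in basement membrane genes. Both were below the 155 of all protein-coding genes with a site and the 179.5 of length class 10. Which list was higher by fold percentile changed with the library: replicate 1 alone gave 92.6 for fibrillar and 94.9 for basement membrane genes, and replicate 2 alone gave 88.3 and 85.5.

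**Figure D2:**
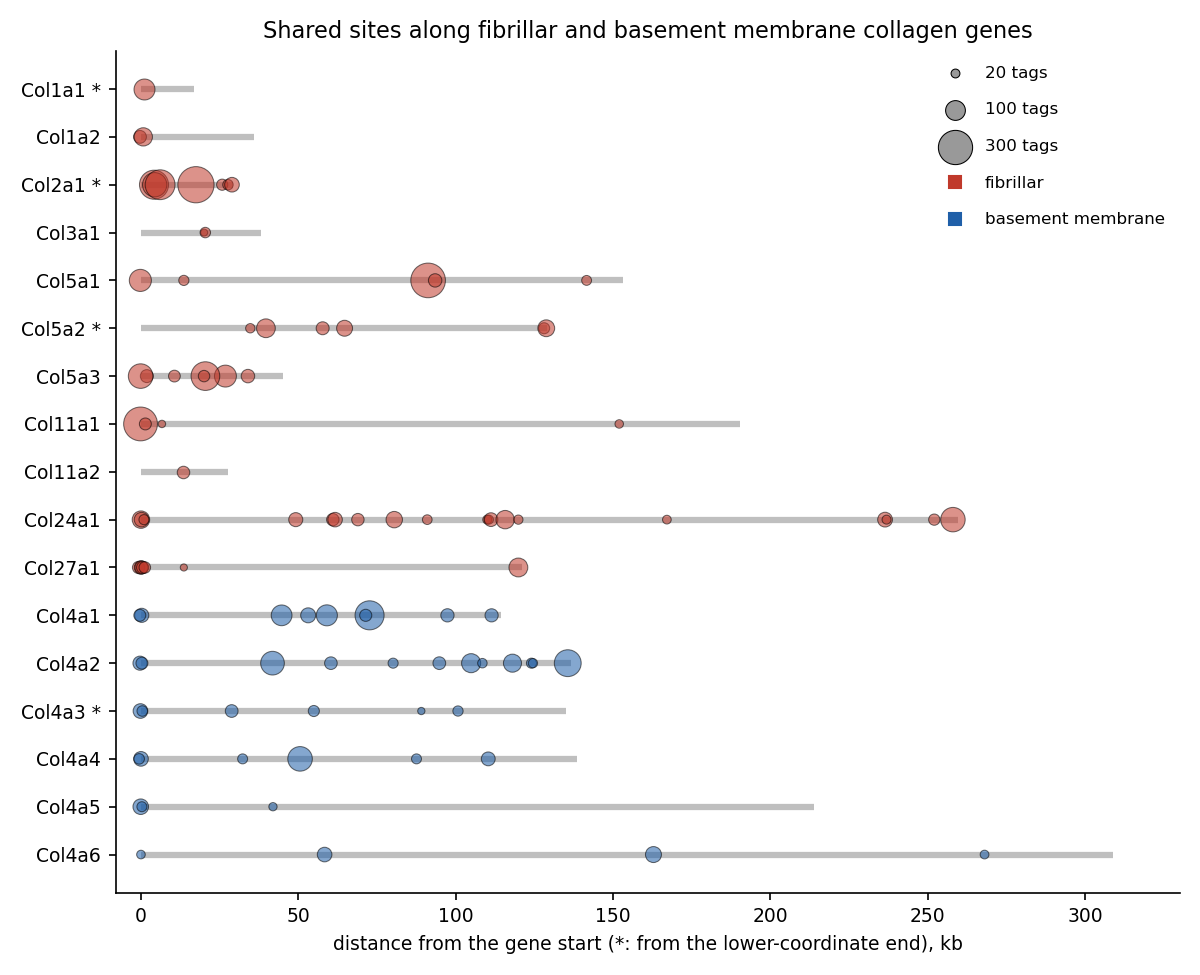
Position of shared sites along the 11 fibrillar and 6 basement membrane collagen genes, in kb from the gene start, with circle area proportional to the mean tags of the 2 libraries and grey bars for the gene length. The 4 genes marked with an asterisk have no listed start and are drawn from their lower-coordinate end. Col2a1, Col5a1 and Col11a1 carry the largest circles.

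At the gene start the lists stood further apart in strength. Listed starts came from the RefSeq promoter table, in which 35 of 44 members were matched. Not matched were Col1a1, Col2a1, Col4a3, Col5a2, Col9a3, Col12a1, Col14a1, Col22a1 and Col26a1. A shared site lay within 1000 bp of a listed start at 24 of 35 members (68.6%), against 65.9% of the 17492 protein-coding genes with a listed start. It did so at 6 of 8 fibrillar and 5 of 5 basement membrane members. Among members with a shared start site, the fibrillar ones were stronger. Their medians were 94.5 tags in replicate 1 and 114 in replicate 2, against 51 and 51 for the basement membrane start sites. These medians leave out Col3a1, with no start site, and Col11a2, whose start peaks of 17 and 27 tags did not overlap. Col1a1, Col2a1, Col5a2 and Col4a3, without a listed start, are also left out. They had up to 112.5, 55, 72.5 and 55 mean tags at a model end. The Col4a5 and Col4a6 starts lie on X, where shared sites had a median of 43 tags, against 52 on the autosomes. By fold the medians were 13.37 and 14.96 for fibrillar, 7.56 and 7.88 for basement membrane and 15.4 and 16.4 for all protein-coding start sites. Col4a1 and Col4a2 share the same start site, so the 5 basement membrane genes give 4 different sites. In the mean of both libraries, 5 of the 6 fibrillar start sites (78 to 292.5 tags) lay above all basement membrane start sites (19 to 62 tags), and Col27a1, at 47, was the fibrillar site within their range. All start sites of protein-coding genes had medians of 133 and 147 tags, so both lists stood below the general level. That level was lower in long genes. In mean tags the median was 140 in all genes, 127.5 in length classes 8 to 10 and 105.5 in class 10. It was 105.25 in fibrillar and 51 in basement membrane genes. With the 50000 peaks of highest fold in each library, 13 of 35 members had a start site, among them 5 of 8 fibrillar and 2 of 5 basement membrane genes. The share of all protein-coding genes with a listed start was then 51.5%, so the collagen share fell below it.

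The promoters below show the range of these starts. Each covers 250 bases before and 50 bases after the listed start, 5′ to 3′ on the gene's strand, from RefSeq on GRCm38.p6, with CpG dinucleotides in capitals. By mean tags, Col11a1 had the strongest collagen start site and Col1a2 a weaker one. Col3a1 and Col10a1 had none, and the basement membrane promoters belong to the head-to-head pairs.
Col11a1 promoter, chr3:114030290-114030589, plus strand: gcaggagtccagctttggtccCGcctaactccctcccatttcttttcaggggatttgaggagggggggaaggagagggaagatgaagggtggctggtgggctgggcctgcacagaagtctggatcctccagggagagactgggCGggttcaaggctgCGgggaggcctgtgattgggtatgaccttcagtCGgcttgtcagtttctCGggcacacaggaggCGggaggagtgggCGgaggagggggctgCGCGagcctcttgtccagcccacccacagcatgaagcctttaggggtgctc
Col1a2 promoter, chr6:4505368-4505667, plus strand: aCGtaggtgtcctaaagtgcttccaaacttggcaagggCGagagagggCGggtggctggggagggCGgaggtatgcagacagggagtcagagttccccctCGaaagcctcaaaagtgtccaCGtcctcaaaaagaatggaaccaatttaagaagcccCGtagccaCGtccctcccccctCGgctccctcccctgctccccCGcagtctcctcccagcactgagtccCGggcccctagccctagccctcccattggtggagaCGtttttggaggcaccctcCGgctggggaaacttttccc
Col3a1 promoter, chr1:45311288-45311587, plus strand: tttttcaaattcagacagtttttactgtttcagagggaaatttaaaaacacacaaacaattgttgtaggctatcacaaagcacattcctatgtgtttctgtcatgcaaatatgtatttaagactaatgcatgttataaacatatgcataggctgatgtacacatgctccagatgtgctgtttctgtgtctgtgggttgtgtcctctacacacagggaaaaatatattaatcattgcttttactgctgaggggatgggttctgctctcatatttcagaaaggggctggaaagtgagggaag
Col4a2 promoter, chr8:11312555-11312854, plus strand: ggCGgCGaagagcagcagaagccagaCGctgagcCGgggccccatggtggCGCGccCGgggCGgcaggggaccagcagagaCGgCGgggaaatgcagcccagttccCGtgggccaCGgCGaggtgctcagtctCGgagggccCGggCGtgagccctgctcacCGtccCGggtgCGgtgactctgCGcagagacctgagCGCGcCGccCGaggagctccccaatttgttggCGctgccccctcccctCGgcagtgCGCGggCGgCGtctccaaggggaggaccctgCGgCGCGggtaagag
Col4a4 promoter, chr1:82586800-82587099, minus strand: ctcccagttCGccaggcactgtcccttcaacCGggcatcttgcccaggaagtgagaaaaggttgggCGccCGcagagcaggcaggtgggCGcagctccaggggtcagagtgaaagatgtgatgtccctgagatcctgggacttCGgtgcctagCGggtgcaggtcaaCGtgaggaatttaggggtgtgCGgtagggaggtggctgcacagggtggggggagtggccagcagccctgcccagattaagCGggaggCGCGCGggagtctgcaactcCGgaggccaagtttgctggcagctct
Col4a5 promoter, chrX:141475169-141475468, plus strand: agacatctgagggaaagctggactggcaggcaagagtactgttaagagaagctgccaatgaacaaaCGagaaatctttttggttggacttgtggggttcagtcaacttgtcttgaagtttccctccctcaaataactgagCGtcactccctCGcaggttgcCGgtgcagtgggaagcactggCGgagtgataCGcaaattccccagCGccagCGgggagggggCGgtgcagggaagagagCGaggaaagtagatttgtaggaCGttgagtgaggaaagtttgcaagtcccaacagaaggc
Col4a6 promoter, chrX:141474027-141474326, minus strand: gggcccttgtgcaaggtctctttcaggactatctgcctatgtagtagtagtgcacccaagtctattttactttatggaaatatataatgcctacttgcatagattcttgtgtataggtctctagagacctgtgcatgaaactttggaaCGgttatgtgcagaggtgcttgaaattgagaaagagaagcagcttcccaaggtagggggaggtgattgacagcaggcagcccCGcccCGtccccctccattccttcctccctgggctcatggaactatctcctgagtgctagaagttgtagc
Col10a1 promoter, chr10:34389731-34390030, plus strand: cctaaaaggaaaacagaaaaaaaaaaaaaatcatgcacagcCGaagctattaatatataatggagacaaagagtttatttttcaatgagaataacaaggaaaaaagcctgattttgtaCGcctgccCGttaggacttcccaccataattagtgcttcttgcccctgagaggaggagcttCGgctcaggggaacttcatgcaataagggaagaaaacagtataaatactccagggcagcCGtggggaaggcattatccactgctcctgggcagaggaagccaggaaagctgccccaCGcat

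The printed promoters differed greatly in CpG content. Col11a1 had 9 CpG in 300 bases, Col1a2 13, Col3a1 0, Col4a2 33, Col4a4 14, Col4a5 11, Col4a6 3 and Col10a1 6. The Col4a1 promoter, on the other strand and overlapping that of Col4a2 in part, had 37. Among the 38 collagen promoters, some genes having 2, a shared site within 1000 bp was found at 2 of 8 with 0 to 4 CpG, 5 of 8 with 5 to 9, 6 of 8 with 10 to 14, 4 of 5 with 15 to 19 and 9 of 9 with 20 or more. Over all 21263 protein-coding promoters the share ran in the same order, from 12.4% at 0 to 4 CpG to 96.3% at 20 or more. The tags were lower in collagen promoters of every CpG class: among collagen promoters with 20 or more CpG the median was 72 tags, against 149 for all promoters of that class. At 23 of the 26 collagen promoters with a site, it was below the median of its CpG class, and the others were those of Col11a1, Col25a1 and Col5a3. Over all promoters with a site, about as many lie below their class median as above it, by construction. The promoters of Col4a1 and Col4a2 are counted with the same site, as are the 2 promoters of Col6a2.

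**Figure D3:**
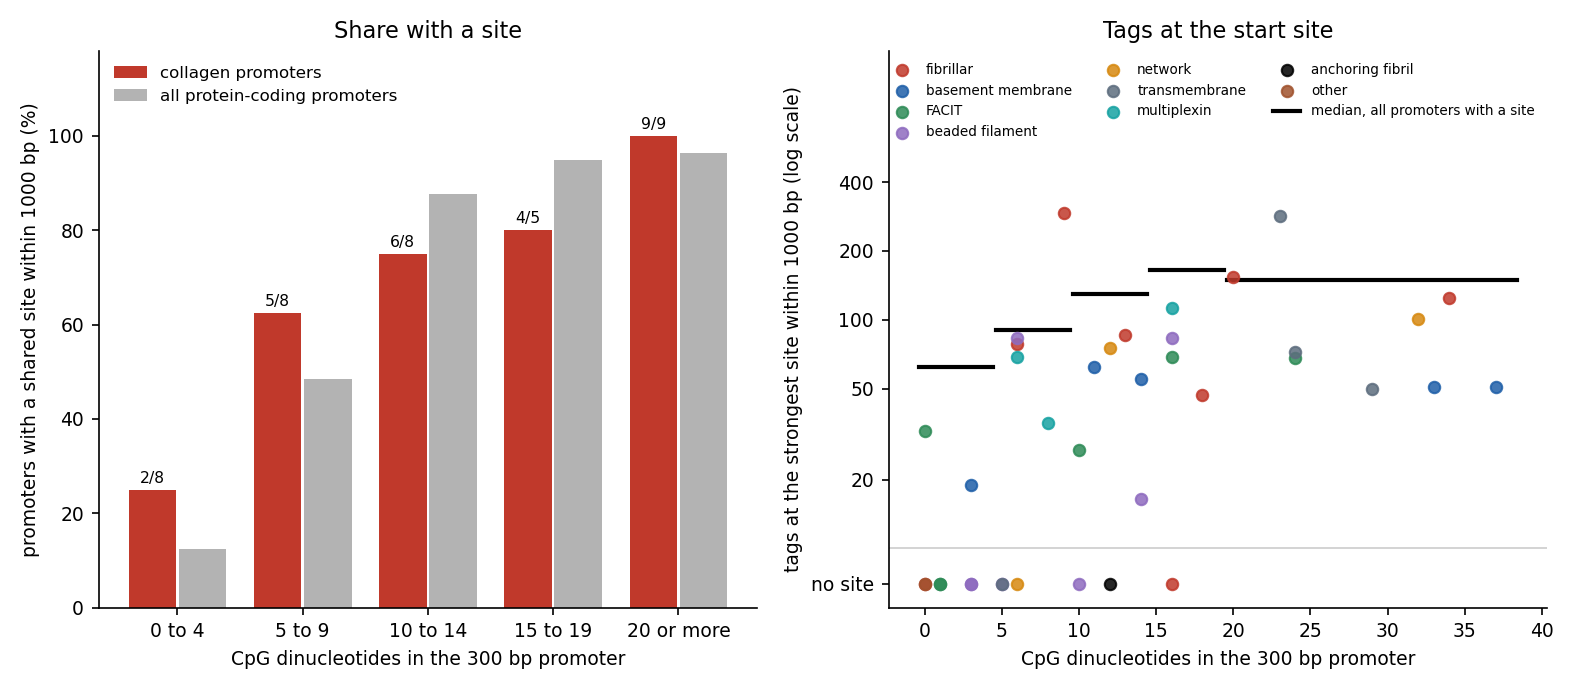
Left, percentage of promoters with a shared site within 1000 bp by number of CpG, for collagen promoters (red, with counts) and all protein-coding promoters (grey). Right, mean tags of the 2 libraries at the strongest such site of each collagen promoter against its CpG number, on a log scale, with black lines for the median of all promoters with a site in each CpG class and a strip for promoters without a site. Most collagen points lie under the lines, and Col11a1, at 292.5 tags, lies highest.

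A set of 3 short motifs, none contained in another, was searched on both strands of the same windows. The CCAAT box stood in 13 of 38 collagen promoters (34.2%), against 38.2% of all protein-coding promoters, and the GC box GGGCGG, a binding sequence of Sp1, in 23 (60.5%), against 46.2%. TATAAA stood in 5 (13.2%), against 12.6%. These were Col3a1, Col10a1, Col11a2 and Col17a1, without a shared start site, and Col13a1, with 3. None was among the 5 basement membrane promoters, which are too few to set against a share of 12.6%. A match says only that these letters occur in the window.

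The genes for type I and type III collagen had 1 or 2 sites each. Col1a1, the alpha 1 chain gene of type I collagen, had 1 shared site in 16.8 kb, at chr11:94936897-94937913, close to its lower-coordinate end, with 104 tags in replicate 1 and 121 in replicate 2. Its partner Col1a2 had 2, which held 46 and 39 tags upstream of and over the start and 72 and 99 tags 0.79 kb downstream. Col3a1, whose product accompanies type I collagen in vessels and skin, had no start site and only a weak pair of overlapping sites 20.1 kb and 20.5 kb into the gene, the larger with 34 and 22 tags. The strongest site stood at fold percentile 72.9 in Col1a1, 69.1 in Col1a2 and 50.9 in Col3a1, below the median of 81.9 over all protein-coding genes with a site.

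Several cartilage and minor fibrillar genes had stronger sites. Col2a1, the main cartilage collagen gene, had 7 sites in 29.1 kb, or 22.5 per 100 kb, and the count of 7 stood at percentile 98.9 among genes of its length class. Its strongest site, chr15:97992820-97993355, held 305 and 367 tags with 32.8-fold and 34.1-fold, and chr15:97981519-97981912 held 268 and 187. A further pair of overlapping replicate 1 peaks, with 167 and 37 tags, met the same replicate 2 peak of 265 tags and counted as 2 of the 7 sites. In contrast the site at its higher-coordinate end had 51 and 59 tags. Col11a1 had the strongest start of all members by mean tags and by fold, chr3:114030099-114030764, with 258 and 327 tags and 25.0-fold and 26.4-fold. In replicate 2 alone the Col25a1 start held more tags, 347. Col11a1 had no other site above 44 tags. Col11a2 had 1 shared site, of 37 and 43 tags, and its start peaks, 17 tags in replicate 1 and 27 in replicate 2, did not overlap.

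The type V genes encode chains that help start fibrils and limit their width. Col5a1 had a wide start site of 121 and 129 tags and a stronger one at chr2:27977301-27977954, 91.3 kb past the lower-coordinate end of the model, with 245 and 369 tags. Col5a3 had 117 and 192 tags at its start and 180 and 241 tags at chr9:20794288-20794793, 20.5 kb inside. Col5a2 had 67 and 78 tags at its higher-coordinate end, while its site at chr1:45438883-45439205 differed between libraries, with 108 tags in replicate 1 and 22 in replicate 2. Col24a1 had the most sites of any member, 19 in 260 kb, yet 30 peaks in replicate 1 and 19 in replicate 2. Its strongest, at chr3:145550238-145550841 near the far end, held 187 and 119 tags. Col27a1 had 4 start sites of at most 48 tags, of which 2 met the same replicate 2 peak, and its strongest site, 116 and 66 tags, just past the model.

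Among the type IV genes, each head-to-head pair had shared sites at its start region. Col4a1 and Col4a2 encode the chains of the network found in nearly all basement membranes. Their listed starts lay 21 bp apart on chromosome 8, at 11312826 for Col4a1 on the minus strand and 11312805 for Col4a2 on the plus strand, and the gene models overlapped by 85 bp. A site at chr8:11311980-11313007 covered both starts, with 51 tags and 7.56-fold in replicate 1 and 51 tags and 7.88-fold in replicate 2. A second, at chr8:11312675-11313543, overlapped the first, also covered both starts and had 26 and 47 tags. By tags the first site stood at percentile 12.7 of the start sites of protein-coding genes, while the Col4a1 and Col4a2 promoters had the most CpG among the 5 listed basement membrane promoters.

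Col4a3 and Col4a4, which encode chains of the kidney glomerular membrane that are mutated in Alport syndrome, lay head to head on chromosome 1 with models that overlapped by 114 bp. The site at chr1:82586526-82587033 lay over the overlap, with 64 tags in replicate 1 and 46 in replicate 2, and that at chr1:82587101-82587553 followed inside Col4a3 with 23 and 34. On the X chromosome the starts of Col4a6 and Col4a5 lay 1343 bp apart and had separate sites. The site at the Col4a5 start held 59 and 65 tags, with 15.5-fold and 16.8-fold, and the one at the Col4a6 start 15 and 23 tags, with 4.19-fold and 6.0-fold. The Col4a5 start was the more accessible one in both libraries. Shared sites on X had a median of 43 tags, against 52 on the autosomes, so that X-linked and autosomal tags are not on quite the same footing.

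In Col4a1, Col4a2, Col4a4 and Col4a6 the strongest site lay far from the start. In Col4a1 it was at chr8:11239970-11240353, 72.7 kb into the gene, with 267 and 165 tags and 30.5-fold and 27.5-fold. In Col4a2 it was at chr8:11448195-11448669, 136 kb from the start and within the last kb of the model, with 190 and 179 tags, followed by chr8:11354299-11354844 with 146 and 141. In Col4a4 it was at chr1:82536077-82536434, with 166 and 143 tags, 50.6 kb from the start. Col4a3 had no site above 64 tags in either library, and beyond the shared region its strongest held 50 and 33. In Col4a6 the inner sites differed between libraries: 92 tags in replicate 1 and 39 in replicate 2 at 163 kb from the start, and 89 and 20 at 58.4 kb. Col4a5 had a single site beyond its start region, of 17 and 18 tags, in 214 kb.

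Start sites of low strength were frequent among the members that had one. Of the 24 members with a start site, 21 were below the median of 140 mean tags for start sites of all protein-coding genes (49.9% of which lie below by construction), 22 in replicate 1 alone and 21 in replicate 2 alone. The exceptions were Col5a3, Col25a1 and Col11a1. Col4a1 and Col4a2 are counted with the same site. In length class 10 the median start site had 65.5 mean tags in collagen genes and 105.5 in all genes. In 19 of 22 members with both kinds of site (86.4%) the strongest other site had more tags than the strongest start site, against 37.8% of all protein-coding genes with both. Compared by fold percentile in place of tags, it was again 19 of 22 members, against 53.2% of all protein-coding genes with both. By library, in tags, this was 19 of 22 in replicate 1 and 18 of 22 in replicate 2, and it held in 4 of 5 fibrillar and 4 of 5 basement membrane members. Length moved with this measure: in length class 10 the share was 13 of 16 for collagen genes (81.3%) and 51.2% for all genes by tags, and 13 of 16 for collagen genes and 73.4% for all genes by fold percentile. The shares of collagen genes and all genes lay closest in this last comparison. The part of the number of sites per gene was not tested.

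**Figure D4:**
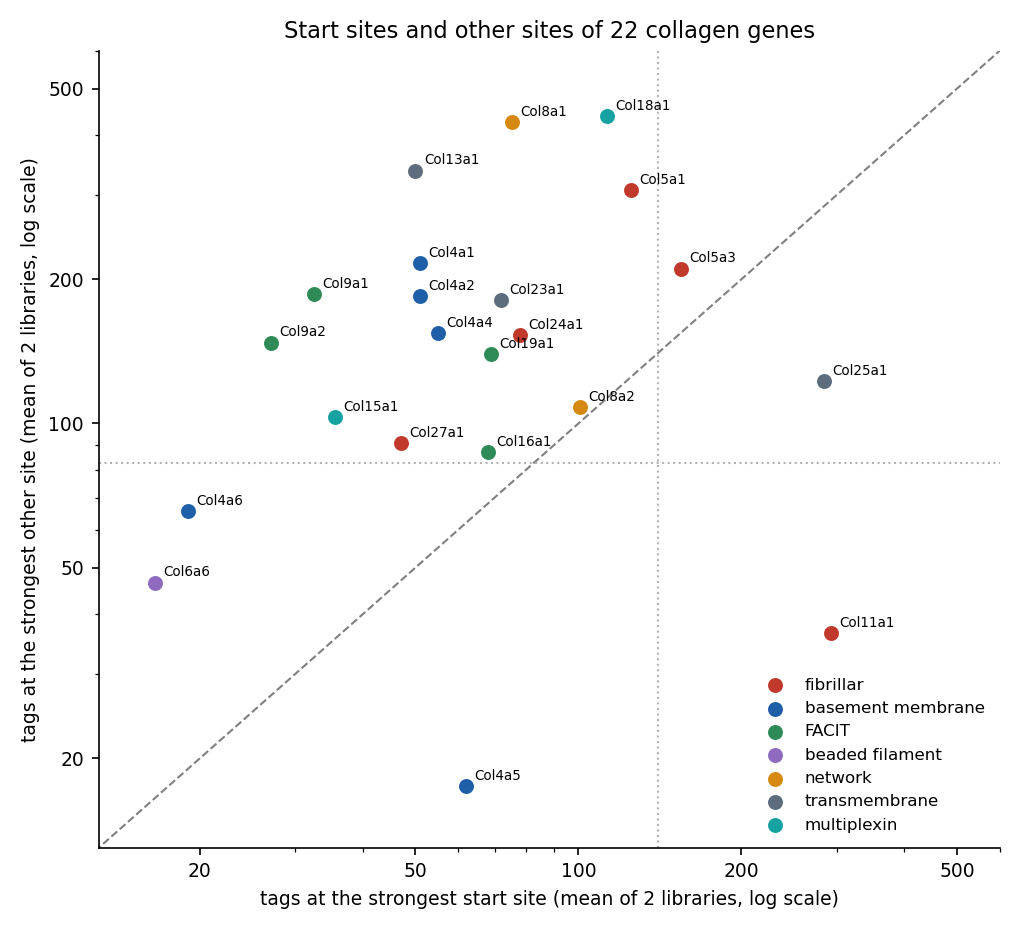
Mean tags of the 2 libraries at the strongest start site (horizontal) and at the strongest other site (vertical) of the 22 collagen genes with both, on log scales, coloured by class. The dashed line marks equal tags and dotted lines the medians of all protein-coding genes, 140 and 82.5. Of the points, 19 lie above the dashed line, and Col11a1, Col25a1 and Col4a5 lie below it.

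Outside these lists, the class of FACIT collagens, which decorate fibril surfaces, had shared sites at 9 of 9 members. Their strongest site had a median of 139.5 mean tags, against 155 in all protein-coding genes with a site and 167.5 in length classes 8 to 10. In Col14a1 it held 267 and 352 tags (32.5-fold and 34.7-fold) near the higher-coordinate end, at chr15:55519150-55519586, and in Col9a1 206 and 167 tags. Col19a1 had 13 sites in 330 kb, with 70 and 68 tags at the start and up to 164 and 115 inside. The beaded-filament genes Col6a1 to Col6a6, for the microfibrils around many cell types, had 1 or 2 sites each and a median of 56.5 tags at the strongest. Of these, Col6a2 and Col6a6 had a start site, with 66 and 101 tags and with 15 and 18 tags.

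In the network class, Col8a1, a collagen of vessel walls and of the corneal endothelial membrane, had 9 sites. One of them, chr16:57685906-57686565, held 434 and 416 tags with 34.2-fold and 31.3-fold. Col8a2, its partner in the same network, had 9 sites in 27.5 kb, the highest density of any member (30.5 per 100 kb). Most of them were weak: besides a site of 124 and 92 tags and a start site of 93 and 108, none exceeded 39 tags in either library. The transmembrane collagen Col13a1 had 11 sites, the strongest with 335 and 339 tags, against 42 and 58 tags at its strongest start site. Col23a1 had 13 sites, with 70 and 74 tags at the start and 162 and 200 tags at the site near Phykpl. Col26a1, of no class used here, had 11 sites, the strongest with 223 and 213 tags (30.9-fold and 28.2-fold). Col25a1, the longest member at 420 kb, had one of the strongest starts, with 222 and 347 tags, whereas the transmembrane Col17a1 of the hemidesmosome had 1 weak site of 22 and 16 tags. Of the multiplexins, which are found at basement membranes, Col18a1 had 13 sites and up to 423 and 452 tags at chr10:77156072-77156501. Col15a1 had 5 sites, with 39 and 32 tags at the start and up to 129 and 77 tags.

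Genes that act on collagen chains were also examined at their starts. Of 21 genes for modification and processing with a listed start, 20 had a shared site there (95.2%, against 65.9% of all such genes), with a median of 124.5 tags. The highest by fold were Ppib, a prolyl isomerase of the collagen hydroxylation complex (321 and 355 tags), the lysyl hydroxylase gene Plod3 (167 and 228) and the collagen galactosyltransferase gene Colgalt1 (274 and 374), and Pcolce had none. Of 9 collagen receptor genes, 5 had one, led by the integrin genes Itga2 (119 and 143), Itga1 (68 and 71) and Itgb1 (132 and 139), while Ddr2, Gp6 and Itga10 were among those with none. Of 9 basement membrane partner genes, 8 had one, with a median of 69.5 tags. They were led by Hspg2, for the proteoglycan perlecan (194 and 177), the nidogen gene Nid1 (64 and 55) and the laminin gene Lamb2 (77 and 59), and Lamb3 had none. The start sites of the type IV genes, 19 to 62 mean tags, overlapped the range of these partners, 30.5 to 185.5.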

How the data were processed

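The deposited files were peak lists, 1 for each of 2 ATAC-seq samples, grouped by their labels. The submitters' processing notes name deepTools 3.5.0, MACS2 2.1.1, Bowtie2 2.3.4.1, bedtools 2.29.2, Trim Galore and Picard 2.18.23, and the builds mm10 and GRCm38.p3. The sources used here do not give their settings; a Tn5 shift or duplicate removal can move summits and tags. As deposited by the authors, each peak has a fold ratio over local background, −log10 p-values and q-values, a score (not used) and a summit. Read depth is unknown. Tags were recovered as the whole number matching fold and p-value for 100% of peaks, within a relative tolerance of 1e-05 plus 0.0001.

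Each replicate 1 peak was joined to the replicate 2 peak overlapping it most, and its coordinates span both. A site belonged to a gene when within 1000 bp of the model, and to its start when within 1000 bp of a listed start. Genes and promoters came from RefSeq (GRCm38.p6). Python 3.11.15, numpy 2.4.6, pandas 2.3.3 and scipy 1.17.1 were used, and the scripts were tested on simulated data. With 1 group, no test between conditions was possible. Alternatives varied the overlap, peak threshold, flank, list members and libraries used. Described in full were the fibrillar and basement membrane members, the 5 members with most sites, the 5 with the highest fold percentile and those with no site. From each list of related genes, the 3 highest by fold percentile at the start and the first 3 alphabetically with no start site were named; other names were chosen after their values were seen. Members and lists were chosen with earlier results of these data known.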

Additional observations from a re-analysis of the deposited data

How the results depend on the processing

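No paired analysis was possible because there is only 1 group. Under 8 alternatives and 2 more chosen after seeing the data (overlapping sites joined, and fibrillar genes without Col24a1 and Col27a1), 87 of 96 values stayed within 1.5 times the count, or within 1 SD between libraries for a median. That SD came from the same single-library values as the alternatives without replicate 1 or without replicate 2, so it does not judge those independently. Counts that already held every member of a list could not rise. With each library limited to its 50000 peaks of highest fold, 13 of 35 collagen genes with a listed start had a start site. The share of all such genes was 51.5%. Of the 13, 5 were fibrillar and 2 basement membrane genes. This limit left 110 shared sites at collagen genes, and medians per 100 kb of 2.64 in fibrillar and 2.16 in basement membrane genes. Fewer peaks enter by construction. From 1 library alone, without replicate 1 or without replicate 2, sites per 100 kb ranged from 5.31 to 7.91 in fibrillar and from 4.68 to 6.49 in basement membrane genes. The fold percentile of the strongest site ranged from 88.3 to 92.6 in fibrillar and from 85.5 to 94.9 in basement membrane genes. Without replicate 2, the order by percentile was basement membrane above fibrillar, and without replicate 1 it was the reverse. The cause was not tested. Collagen genes with a start site numbered 25 in each library alone.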

Other observations

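In Col18a1, 3 shared sites within 4.42 kb combined many tags with a modest fold. They held 284, 379 and 346 tags in replicate 1 and 298, 421 and 396 in replicate 2, at 8.18-fold to 10.47-fold and 7.62-fold to 10.4-fold. Their local background was 33.8 to 35.3 tags in replicate 1 and 38.2 to 39.7 in replicate 2, against a median of 3.62 tags at all shared sites, of which 0.377% had a background of 30 tags or more.

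Sites inside the model and away from the start were also counted along 4 equal stretches of the gene, in the direction of transcription. Of 34 such sites in fibrillar genes with a listed start, 10, 11, 6 and 7 fell in the successive stretches, and of 25 in basement membrane genes, 3, 5, 7 and 10. In all protein-coding genes the stretches held 26.6%, 24.5%, 23.4% and 25.6%. The sites come from few genes, and no test was made.

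Tags were over 2-fold lower in replicate 2 at 13 collagen sites and over 2-fold higher at 4. The site at chr8:11267893-11268294 in Col4a1 held 181 tags in replicate 1 and 39 in replicate 2, and that at chr3:130211170-130211914 in Col25a1 held 85 and 14. In the other direction, the site at chr1:24218450-24218777 in Col9a1 held 32 and 79, and that at chr3:145353325-145353625 in Col24a1 held 18 and 61. Over all shared sites, 4.85% were over 2-fold lower in replicate 2 and 3.22% over 2-fold higher. Summed over all collagen sites, replicate 2 had 0.987 times the tags of replicate 1, against 1.05 times over all shared sites.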
